A study of Mus musculus with 3 samples.

Results

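A set of cells with RNA of tenascin-C (Tnc) and cadherin 6 (Cdh6) was described within the mesenchyme of the mouse cochlea, the coiled hearing organ, at embryonic day 15 (E15). Whole cochleae of wildtype C57BL/6J mice were dissociated with papain and thermolysin, sorted to remove debris and sequenced cell by cell in droplets. Each RNA molecule caught carries a unique molecular identifier (UMI), and UMIs were counted for every gene in every barcoded cell. There were 2 libraries of E15 and 1 of P7 (postnatal day 7). The labels do not say how many animals went into a library or whether the E15 libraries came from separate litters. Tests measure how the difference between cell groups varied between these 2 libraries, pooled over genes. That spread may be technical.

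Cells were kept with at least 500 genes and at most 20% mitochondrial UMIs. Those with no UMI of Epcam, Cdh5, Sox10 or Ptprc and at least 3 UMIs of Col1a2 and Col3a1 together were taken as mesenchyme, and those among them with at least 3 UMIs of Tnc and at least 1 of Cdh6 as the Tnc/Cdh6 cells. There were 172 such cells of 3697 E15 mesenchymal cells, out of 15272 barcodes in the series. They made up 108 of 1630 mesenchymal cells in E15 replicate 1 (6.63%, exact 95% interval 5.47 to 7.94%) and 64 of 2067 in E15 replicate 2 (3.1%, 2.39 to 3.94%). The share was higher in replicate 1, whose cells were also deeper. Because the gate reads UMIs, it takes deep cells more often: Tnc/Cdh6 cells had a median of 19892 and 15291 UMIs in replicates 1 and 2, against 15110.5 and 11324 UMIs in the rest of the mesenchyme. Of cells of other types, with at least 2 UMIs of 1 of the 4 excluded genes and under 3 of the collagens, 2 of 213 in replicate 1 and 0 of 286 in replicate 2 passed the same Tnc and Cdh6 limits. The count of 0 allows a share of up to 1.05%. The E15 libraries shared 3 barcodes, none of them of a Tnc/Cdh6 cell, and intervals cover counting error only.

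Tenascin-C is a large glycoprotein of the extracellular matrix that is laid down around condensing and moving cells in development and bound by integrins. Cadherin 6 is a classical cadherin that joins like cells through calcium-dependent contacts. The mesenchyme around the otic epithelium, which carries the transcription factor Pou3f4, gives rise to the bony capsule, the fibrocytes of the lateral wall and spiral limbus and the cells lining the fluid spaces. Enpp2 (autotaxin, which makes lysophosphatidic acid) and the homeobox factor Nkx6-1 were used as further markers of the population.

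The genes that chose or described the cells are given as values, with no test. Tnc, on chromosome 4, stood at 294 and 276 CPM (UMIs per 1000000 UMIs) in the summed Tnc/Cdh6 cells of replicates 1 and 2, against 17.8 and 15.7 CPM in the rest. Cdh6, on chromosome 15, stood at 241 and 247 CPM, against 27.6 and 29.0 CPM in the rest. Enpp2 had 105 and 101 CPM in Tnc/Cdh6 cells and 17.3 and 18.9 CPM in the rest, and Nkx6-1 128 and 95.2 CPM in Tnc/Cdh6 cells and 38.8 and 44.0 CPM in the rest. These last 2 markers did not mark every cell: both had a UMI in 61 of 108 and 26 of 64 Tnc/Cdh6 cells, Enpp2 alone in 10 and 11, Nkx6-1 alone in 23 and 20, and neither in 14 and 7. In leukocytes (Ptprc cells), which should lack them and had a median of 24169 and 21546.5 UMIs, Enpp2 had a UMI in 0 of 37 and 0 of 28 cells and Nkx6-1 in 1 of 37 and 0 of 28. Other cell types did hold Enpp2, in 9 of 39 and 12 of 48 Cdh5 cells and 20 of 104 and 22 of 139 Sox10 cells. Epcam cells had it in 2 of 33 and 4 of 71, and the rest of the mesenchyme in 241 of 1522 and 290 of 2003. Epcam cells were shallower, with a median of 6092 and 4789 UMIs, so these shares are not at equal depth. Their Enpp2 level was 17.0 and 30.9 CPM, from 4 and 13 UMIs, not below that of the rest in replicate 2 and near it in replicate 1. Nkx6-1 had a UMI in 1 of 104 and 1 of 139 Sox10 cells. Cdh6 stood at 35.4 and 29.8 CPM in Sox10 cells, near the rest, and lower in the other types. Tnc stood at 29.7 and 28.5 CPM in Epcam cells, from 7 and 12 UMIs, above the rest, and lower in the other types.

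Against the label "mesenchyme", some markers were at the level of the rest and others were not. Tbx18, a T-box factor of otic mesenchyme, had 259 and 265 CPM in Tnc/Cdh6 cells against 247 and 241 CPM in the rest, and Twist1 had 283 and 306 CPM against 274 and 293 CPM. Pou3f4 was at 336 and 337 CPM against 435 and 464 CPM, and the platelet-derived growth factor receptor Pdgfra at 117 and 105 CPM against 132 and 115 CPM. None of these 4 passed the fold limit of the test below. Prrx1, a homeobox factor of limb and craniofacial mesenchyme, was called lower, at 72.7 and 92.3 CPM against 123 and 131 CPM (log2 difference -0.66 ± 0.10). The mesenchyme markers Lum, Dcn and Col1a1 were called lower by more, Lum at 21.9 and 14.4 CPM against 120 and 133 CPM. They are given with the matrix genes below, with the limits of the fall of Col1a1. The collagens that define the gate were lower, Col1a2 at 171 and 147 CPM in Tnc/Cdh6 cells against 555 and 533 CPM in the rest and Col3a1 at 358 and 391 CPM against 1137 and 1169 CPM. The gate reads these collagens, so their levels are a description.

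UMIs were summed over the Tnc/Cdh6 cells and over the rest of each library, and genes were tested with edgeR's quasi-likelihood test with library as a block. A call needed an adjusted p (Benjamini-Hochberg, over all 12947 genes) under 0.05, a fitted fold of at least 1.5 and the same direction in both libraries. By this rule 423 genes (3.27%) were higher and 675 (5.21%) lower in Tnc/Cdh6 cells. DESeq2 on the same sums called 153 and 214. With 1 residual degree of freedom, edgeR pooled the spread over all genes, so its standard errors (SE) and p-values are small. For the gene lists below, counts by DESeq2 and under the settings that moved them most are given beside those of edgeR. Each list count is to be read beside the share of all genes called in the same setting. In the main edgeR run that is 3.27% higher and 5.21% lower. For DESeq2 that is 153 and 214 of 12947 genes, so a list with 1 or 2 calls can be near the share of all genes. By edgeR it is 191 and 213 of 12518 genes with at least 10 collagen UMIs, and 104 and 253 of 12621 with the gate applied after thinning. A fold limit of 2 gave 176 and 454 of 12947, and a Tnc limit of 2 UMIs 456 and 772 of 12868. In such sums, fewer cells with a gene and less of its RNA per cell cannot be told apart.

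Among genes of at least 50 CPM the largest rise was that of Ccn3, a secreted matricellular protein of the CCN family. It had 114 and 107 CPM in Tnc/Cdh6 cells, against 8.80 and 8.29 CPM in the rest, a log2 difference of 3.70 ± 0.13 (SE; edgeR adjusted p = 1.3e-158). Single Tnc/Cdh6 cells held between 0 and 25 Ccn3 UMIs, with a median of 1.0 and 0.5 in replicates 1 and 2, so its level was uneven among them. Ccn3 lies on chr15:54745702-54754039 (GRCm38, plus strand) and the marker Enpp2 on chr15:54838901-54952892 (minus strand), 84.9 kb apart.

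Itga8, the integrin alpha chain that pairs with the beta 1 chain to bind tenascin-C and nephronectin, had 169 and 210 CPM in Tnc/Cdh6 cells against 51.8 and 50.1 CPM in the rest (log2 difference 1.86 ± 0.09). It was the one riser among 11 tested integrins of the tenascin receptor list, on which Itga11 fell by edgeR but not by DESeq2 (14.5 and 15.4 CPM against 28.1 and 29.5 CPM). Its partner Itgb1 had 335 and 353 CPM against 388 and 369 CPM, and Itga9 and Itgav did not pass. Akap12, a scaffold for protein kinases, reached 547 and 518 CPM against 156 and 172 CPM, and Myo6, an unconventional myosin best known from hair cells, 188 and 173 CPM against 59.8 and 62.8 CPM. A call requires the same direction in both libraries, so that these risers stood above the rest in each was set by their choice.

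**Figure D1:**
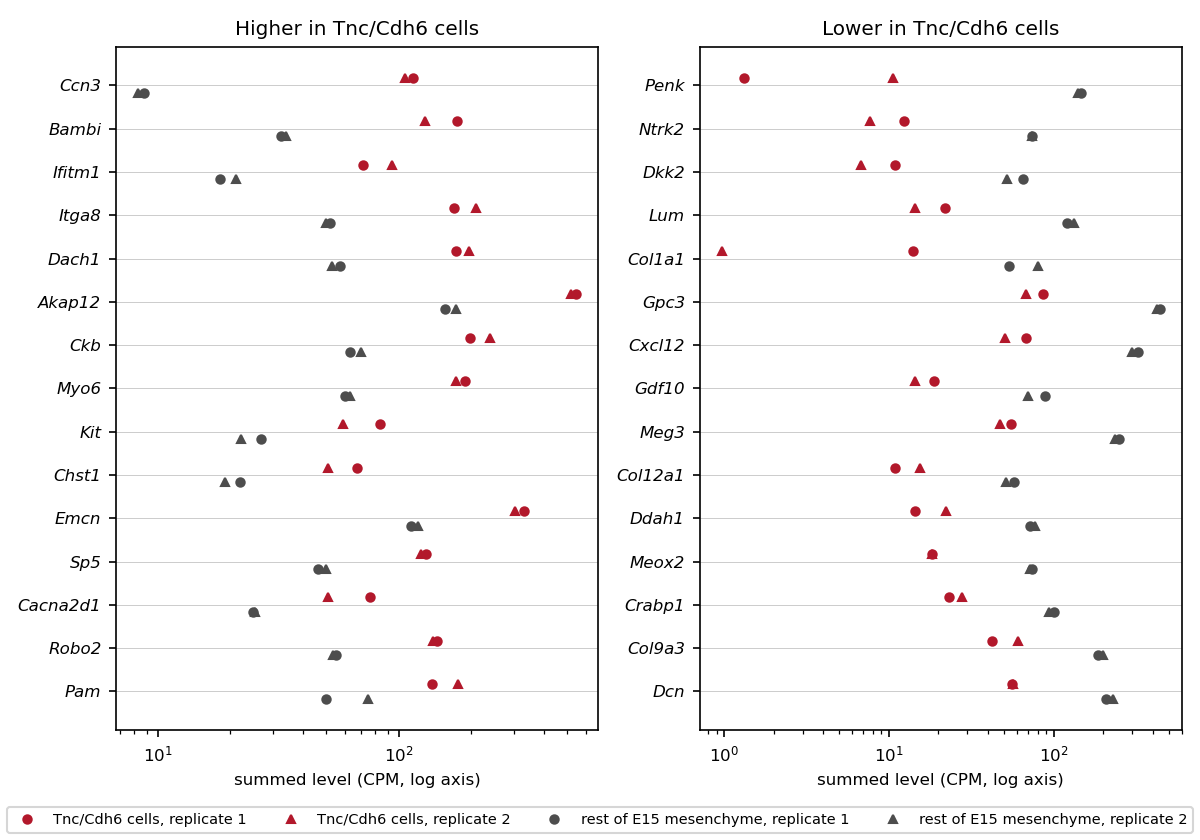
Summed level in CPM (log axis) of the 15 genes with the largest rise and the 15 with the largest fall, in Tnc/Cdh6 cells (red) and in the rest of the E15 mesenchyme (grey); circles are replicate 1 and triangles replicate 2. The 30 genes were chosen for a difference between the groups, so their separation is no further result. Ccn3, for example, lies at 114 and 107 CPM against 8.80 and 8.29 CPM.

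Further genes with a large rise had varied roles. Ifitm1, an interferon-induced membrane protein, had 71.4 and 94.2 CPM in Tnc/Cdh6 cells against 18.2 and 21.1 CPM in the rest. Dach1, a transcriptional cofactor, had 173 and 196 CPM against 57.3 and 52.7 CPM, and the brain-type creatine kinase Ckb 198 and 240 CPM against 62.7 and 70.1 CPM. Chst1, a keratan sulfate sulfotransferase, Cacna2d1, a calcium channel subunit, and Pam, which amidates peptide hormones, rose by 1.56 ± 0.14, 1.41 ± 0.13 and 1.37 ± 0.09 on the log2 scale. The call of Cacna2d1 was lost where the mesenchyme gate required at least 10 collagen UMIs.

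Emcn and Kit, which rose, also mark other cell types, and the markers of those types are given beside them. Emcn, a sialomucin best known from endothelium, had 331 and 305 CPM in Tnc/Cdh6 cells against 112 and 120 CPM in the rest. Of the 10 endothelial genes 8 were tested and 2 were called higher, Emcn and Plvap (5.69 and 7.69 CPM against 2.47 and 2.56 CPM); DESeq2 did not call Plvap (adjusted p = 0.44), which had the opposite sign (fitted log2 difference -8.21) where the gate was applied after thinning. Pecam1 stood at 0.88 and 0.00 CPM against 1.07 and 0.60 CPM and Kdr at 0.88 and 1.92 CPM against 0.60 and 0.60 CPM, neither called, and the median of the list was 0.89. Cdh5 says nothing here, since the gate takes cells without it. The list summed to 353 and 342 CPM in Tnc/Cdh6 cells, nearly all of it Emcn, against 134 and 144 CPM. Kit, a receptor tyrosine kinase of melanocytes and mast cells among others, had 84.1 and 58.7 CPM against 26.8 and 22.1 CPM, while the melanocyte genes Dct, Mlana and Tyr were at 0 in Tnc/Cdh6 cells. The part of other cell types in these rises was not tested.

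Among the genes of bone morphogenetic protein (BMP) signalling, 6 of 30 tested were higher and 9 lower, where 3.27% and 5.21% of all genes were. DESeq2 called 5 and 4, and with a fold limit of 2 edgeR called 2 and 9. With at least 10 collagen UMIs edgeR called 1 and 3 of 29, where 191 and 213 of all 12518 genes were called. With the gate applied after thinning edgeR called 2 and 2 of 29, where 104 and 253 of all 12621 were. BMPs bind paired receptors and drive Smad proteins into the nucleus, where they switch on Id genes and the pathway's own inhibitors. Bambi, a decoy receptor without a kinase, had 174 and 129 CPM in Tnc/Cdh6 cells against 32.6 and 34.1 CPM in the rest (log2 difference 2.23 ± 0.10). The ligand Bmp2 had 12.3 and 13.5 CPM against 2.71 and 3.12 CPM (2.15 ± 0.33), and Bmp4 57.8 and 66.3 CPM against 32.5 and 34.5 CPM. The inhibitory Smad7 stood at 104 and 95.2 CPM against 51.4 and 53.0 CPM, Smad6 at 18.0 and 18.3 CPM against 9.59 and 9.25 CPM (not called by DESeq2, adjusted p = 0.27), and Id1, a target gene of the pathway, at 706 and 681 CPM against 335 and 379 CPM.

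The BMP genes that fell were ligands, a receptor and extracellular antagonists. The ligand Gdf10 had 18.8 and 14.4 CPM in Tnc/Cdh6 cells against 88.5 and 69.7 CPM in the rest (-2.24 ± 0.16). The antagonist Fst, follistatin, had 0.44 and 1.92 CPM against 5.02 and 3.64 CPM, and the receptor Bmpr1b 3.5 and 0.96 CPM against 9.75 and 8.45 CPM, neither of them called by DESeq2 (adjusted p = 0.54 and 0.18). Chrd and Chrdl1, chordin and its relative, fell by 1.19 and 1.44 on the log2 scale, but had the opposite sign, 0.26 and 0.67, where the gate was applied after thinning. The type I receptor Bmpr1a, at 62.2 and 49.0 CPM against 61.0 and 54.0 CPM, and Id3, at 1220 and 1275 CPM against 889 and 966 CPM, did not pass. The list's median was -0.03, beside -0.01 over all genes tested.

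Of 42 tested Wnt pathway genes 6 were higher and 9 lower, with a median of -0.22, where 3.27% and 5.21% of all genes were called. DESeq2 called 5 and 1, beside 153 and 214 of all 12947 genes, so its 1 lower gene is near the share of all genes. With at least 10 collagen UMIs edgeR called 3 and 1 of 41, where 191 and 213 of all 12518 genes were called. With the gate applied after thinning edgeR called 4 and 1 of 40, where 104 and 253 of all 12621 were. In the canonical pathway, Wnt ligands bind Frizzled receptors and stabilise beta-catenin, which acts with Tcf and Lef factors on targets that include the pathway's own inhibitors. The receptor Fzd10 had 39.9 and 37.5 CPM in Tnc/Cdh6 cells against 10.6 and 12.4 CPM in the rest (1.79 ± 0.18), and Notum, a secreted enzyme that inactivates Wnt ligands, 18.4 and 26.9 CPM against 6.57 and 7.17 CPM (1.66 ± 0.23). The other 4 were Sp5, Axin2, Nkd1 and Apcdd1, all known as targets or feedback inhibitors. Sp5, a zinc finger factor, had 131 and 124 CPM against 46.5 and 50.1 CPM, Axin2 98.5 and 86.5 CPM against 58.2 and 58.7 CPM, and Nkd1 155 and 186 CPM against 92.8 and 102 CPM. Apcdd1 was higher mainly in replicate 1 (50.8 and 24.0 CPM against 25.2 and 22.7 CPM); DESeq2 did not call it (adjusted p = 0.41), and its sign turned (-0.13) with at least 10 collagen UMIs.

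Fallers of the Wnt list were secreted proteins, except for the receptor Fzd8 and the inhibitor Nkd2. Dkk2, a secreted modulator, had 10.9 and 6.73 CPM in Tnc/Cdh6 cells against 65.5 and 52.1 CPM in the rest (-2.67 ± 0.20). The ligands Wnt2, Wnt5b, Wnt6 and Wnt11 and the R-spondins Rspo2 and Rspo3 were also called lower by edgeR, but all were low in level and DESeq2, which called Dkk2 alone, gave adjusted p = 0.12 for Wnt6, 0.14 for Wnt11, 0.44 for Rspo2 and 0.061 for Rspo3. Wnt2 had no UMI in Tnc/Cdh6 cells, at least 2.94-fold lower by a floor of 3 counts over the group. Of the Tcf and Lef factors, Tcf7 rose (21.46 and 16.3 CPM against 5.49 and 6.05 CPM), while Lef1 (265 and 212 CPM against 269 and 252 CPM) and Tcf7l1 did not pass.

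The start region of Sp5 is shown because of the risers with a sequence it held the most copies of the core letters bound by Tcf and Lef factors, CTTTGA or CTTTGT on either strand. The stretch is chr2:70474673-70474922 (GRCm38.p6, plus strand, from RefSeq), the 250 bases before the annotated start, with the matches in capitals.
Sp5: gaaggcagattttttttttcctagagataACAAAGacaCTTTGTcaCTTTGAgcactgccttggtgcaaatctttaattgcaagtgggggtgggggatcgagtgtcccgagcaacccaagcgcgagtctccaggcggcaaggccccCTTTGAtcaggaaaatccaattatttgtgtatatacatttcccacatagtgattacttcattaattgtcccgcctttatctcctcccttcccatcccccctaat
These bases hold 4 matches, 3 of them in a row with few bases between, and a further match lies within the 50 bases after the start. At least 5 matches occur in 0.0365% of 32851 promoter windows of 300 bases, and at least 1 in 31.2%. Of 20 genes looked up, the 15 with the largest rise and the other 5 Wnt genes that rose, 15 had a window and 4 of these held a match: Sp5, Dach1 with 2, and Ifitm1 and Ckb with 1 each. Axin2 and Nkd1 held none in this window. The matches are a description of the letters and not of binding.

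The largest fall was that of Penk. Penk, the precursor of enkephalin peptides, had 1.31 and 10.6 CPM in Tnc/Cdh6 cells against 147 and 141 CPM in the rest (log2 difference -5.09 ± 0.20, edgeR adjusted p = 4.1e-141). Its log2 ratio was -6.59 in replicate 1 and -3.68 in replicate 2, a spread that the pooled SE does not show. DESeq2 gave Penk an adjusted p = 0.0016. In replicate 1 its RNA was all but absent from Tnc/Cdh6 cells. Ntrk2, the receptor of brain-derived neurotrophic factor, had 12.3 and 7.69 CPM against 73.6 and 73.8 CPM. Cxcl12, a chemokine of stromal cells, had 68.3 and 51.0 CPM against 325 and 300 CPM, the imprinted noncoding RNA Meg3 55.2 and 47.1 CPM against 250 and 237 CPM, and the retinoic acid carrier Crabp1 23.2 and 27.9 CPM against 101 and 93.8 CPM. Ddah1, which breaks down methylated arginines, fell by 2.12 on the log2 scale.

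Most collagens were lower. Of 30 tested, 20 fell and 1 rose, with a median of -1.01. DESeq2 called 14 lower, and edgeR 12 with at least 10 collagen UMIs and 9 with the gate applied after thinning. Col12a1, of the collagens that attach to fibrils, had 10.9 and 15.4 CPM in Tnc/Cdh6 cells against 57.2 and 51.4 CPM in the rest, and Col9a3, of cartilage fibrils, 42.0 and 60.6 CPM against 186 and 200 CPM. Col6a3, of beaded filaments, had 48.6 and 43.3 CPM against 150 and 140 CPM. Col1a1, the main chain of fibrillar collagen, was fitted at -2.66 ± 0.20, but in replicate 1 a single cell held 31 of its 32 UMIs in Tnc/Cdh6 cells (14 CPM, beside 0.96 CPM in replicate 2, against 53.9 and 80.75 CPM), DESeq2 did not call it (adjusted p = 0.24), and its sign turned (0.38) against a rest limited to cells poor in collagen. The riser was Col25a1, a transmembrane collagen, at 83.65 and 81.7 CPM against 34.2 and 38.4 CPM.

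Proteoglycans and matrix glycoproteins followed in their counts. Of 27 proteoglycan and hyaluronan genes 14 fell and 1, Ncan, rose, with a median of -0.83; DESeq2 called 6 lower and none higher. The small leucine-rich proteoglycans Lum and Dcn, which space collagen fibrils, had 21.9 and 14.4 CPM and 55.6 and 56.7 CPM in Tnc/Cdh6 cells, against 120 and 133 CPM and 207 and 229 CPM in the rest. Gpc3, a cell surface glypican, had 86.3 and 68.3 CPM against 444 and 423 CPM (-2.45 ± 0.08), and Ogn 0.88 and 0.00 CPM against 35.4 and 31.7 CPM. Of 36 matrix glycoproteins other than Tnc, 19 fell and 3 rose, with a median of -0.94; DESeq2 called 8 lower and the same number, 3, higher. Matn4, a matrilin, fell to 2.19 and 0.96 CPM in Tnc/Cdh6 cells, against 30.3 and 29.3 CPM, and Vtn, vitronectin, had no UMI in Tnc/Cdh6 cells, at least 13.3-fold lower than 11.7 and 12.3 CPM. Tgfbi, a matrix protein that binds integrins, rose (409 and 385 CPM against 214 and 201 CPM), as did Emilin2 and Spon2, while fibronectin (Fn1, 122 and 140 CPM against 163 and 158 CPM) and periostin (Postn, 59.6 and 22.1 CPM against 38.4 and 37.7 CPM) did not pass.

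The counts of matrix genes moved with the collagen level of the cells they were set against. Against a rest limited to cells whose Col1a2 and Col3a1 share was at most the 90th percentile of Tnc/Cdh6 cells, an alternative chosen after the data were seen, 7 of 26 collagens, 12 of 24 proteoglycan genes and 11 of 32 matrix glycoproteins were lower. There, 397 genes in all were called higher and 411 lower.

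**Figure D2:**
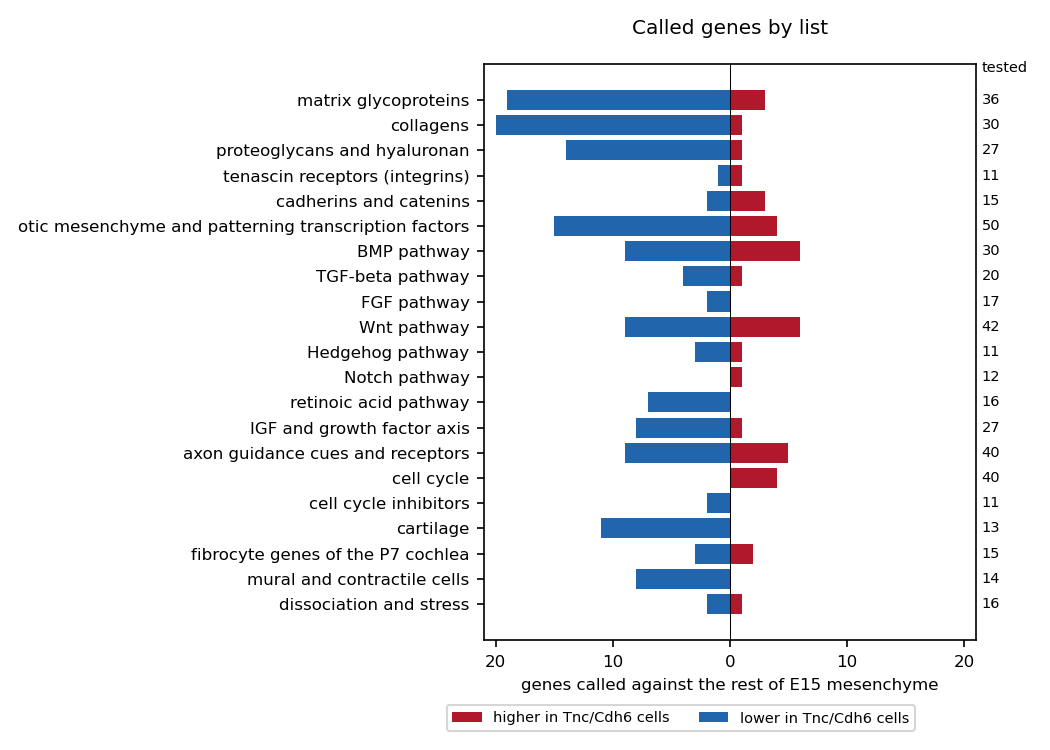
Number of genes called higher (red, to the right) and lower (blue, to the left) in Tnc/Cdh6 cells than in the rest of the E15 mesenchyme, for each list with at least 10 tested genes; the number tested stands at the right edge. Collagens had 1 higher and 20 lower of 30, and the BMP pathway 6 higher and 9 lower of 30.

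Regulators of mesenchyme identity and skeletal fate were also mostly lower where they differed. Of 50 tested transcription factors of otic mesenchyme and patterning, 4 rose and 15 fell (median -0.21, or -0.17 with the gene at 0 UMIs in Tnc/Cdh6 cells set to its bound); DESeq2 called 2 and 8. Meox2, a homeobox factor of mesoderm, had 18.4 and 18.3 CPM in Tnc/Cdh6 cells against 73.9 and 72.3 CPM in the rest, Six2 5.26 and 4.81 CPM against 27.7 and 22.3 CPM, and the forkhead factor Foxd1 121 and 92.3 CPM against 334 and 335 CPM. The risers were Nr2f1 (161 and 144 CPM against 81.6 and 76.2 CPM), Tcf7, Gata6 (7.01 and 2.88 CPM against 0.84 and 0.80 CPM) and Meox1, whose sign turned (-0.67) where the gate was applied after thinning. Of 13 cartilage genes 11 fell, 5 of 13 by DESeq2, and none rose (median -1.77, or -1.75 with Acan, which had no UMI in Tnc/Cdh6 cells, set to its bound). Sox9, the master factor of cartilage, had 66.1 and 128 CPM against 189 and 187 CPM, and Sox5 8.32 and 7.69 CPM against 29.4 and 25.2 CPM, while Col2a1 (561 and 590 CPM against 867 and 837 CPM) did not pass the fold limit.

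Other signalling lists held fewer tested genes and fewer calls, so their counts are to be read as shares, beside 3.27% higher and 5.21% lower over all genes. In the retinoic acid pathway 7 of 16 genes fell, 4 by DESeq2, and none rose (median -0.71), among them Rarg, a receptor, at 7.45 and 5.77 CPM in Tnc/Cdh6 cells against 23.2 and 22.5 CPM in the rest. In the TGF-beta pathway Tgfb2 (25.0 and 22.1 CPM against 75.1 and 72.4 CPM), Tgfb3, Tgfbr2 and Ccn1 fell and Ccn3 rose, of 20 tested. In the Hedgehog pathway the transcription factor Gli3 rose (75.8 and 63.5 CPM against 43.6 and 36.4 CPM), and the target genes Gli1 (9.20 and 10.6 CPM against 24.7 and 20.3 CPM), Ptch1 and Hhip fell, of 11; DESeq2 called 1 higher and 1 lower. Jag1, a Notch ligand, was the one call among 12 Notch genes (36.8 and 39.4 CPM against 15.0 and 18.1 CPM). Of 17 fibroblast growth factor genes Fgf18 and Fgfr3 fell by edgeR and 0 by DESeq2, Fgf18 with the opposite sign (0.23) where the gate was applied after thinning.

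Growth factors and guidance cues went both ways, where 3.27% of all genes rose and 5.21% fell. The 1 riser of 27 in the first list below is near that share. Of 27 genes of the IGF and growth factor list 8 fell, such as Igfbp4 (307 and 329 CPM in Tnc/Cdh6 cells against 609 and 638 CPM in the rest), and 1 rose, Ptn, the heparin-binding pleiotrophin, which was abundant throughout (3095 and 3031 CPM against 1978 and 1947 CPM). Of 40 axon guidance genes 5 rose and 9 fell by edgeR, and 3 and 3 by DESeq2. The Slit receptors Robo2 (144 and 139 CPM against 54.8 and 53.5 CPM) and Robo1 (100.3 and 89.4 CPM against 49.0 and 44.2 CPM) rose along with the ligand Slit2 (39.4 and 29.8 CPM against 23.1 and 21.3 CPM; DESeq2 adjusted p = 0.31), as did Epha5 and Plxnd1, the last with the opposite sign (-0.55) where the gate was applied after thinning. The semaphorin receptor Nrp2 fell (60.9 and 53.8 CPM against 212 and 204 CPM), together with Sema3a (12.7 and 25 CPM against 40.0 and 36.7 CPM). Sema3c, Sema3d and Sema3e were called lower by edgeR but not by DESeq2 (adjusted p = 0.71, 0.43 and 0.26).

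Adhesion genes went both ways. Of 15 tested cadherins and catenins Cdh10 (16.2 and 13.5 CPM in Tnc/Cdh6 cells against 6.13 and 5.40 CPM in the rest), Cdh18 and Ctnna2 rose, and Cdh11, the main cadherin of mesenchyme, fell (122 and 129 CPM against 273 and 257 CPM), as did Cdh13. DESeq2 called Cdh11 alone, with adjusted p = 0.073 for Cdh10, 0.33 for Cdh18 and 0.066 for Ctnna2, and with the gate applied after thinning edgeR called 0 higher and 1 lower. N-cadherin (Cdh2), at 54.3 and 41.3 CPM against 37.9 and 34.8 CPM, did not pass. Of 7 other tested genes of lysophosphatidic acid signalling 0 were called by edgeR and 0 by DESeq2, while 4 of the 7 had an unadjusted edgeR p under 0.05. One of these, the receptor Lpar1, had 150 and 142 CPM against 181 and 189 CPM, which passed on p but not on fold (log2 difference -0.32 ± 0.08; edgeR adjusted p = 5.5e-04). The lipid phosphatase Plpp3 had 335 and 341 CPM against 337 and 341 CPM.

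The direction of cell cycle genes depended on the gate and on the cells they were set against. Of 40 tested, Cenpe, Cenpf, Nusap1 and Kif11 rose and none fell (median 0.39), with 12 higher at a Tnc limit of 2 UMIs and 13 with at least 10 collagen UMIs, yet with the gate applied after each cell was thinned to 5000 UMIs, which leaves 20 and 11 Tnc/Cdh6 cells, none rose and 10 fell. Among cells above the median UMI count none was called in either direction. For the same Tnc/Cdh6 cells against a rest limited to cells poor in collagen, 0 of 40 rose and 1 fell, with a median of -0.15. Top2a, for example, had 451 and 414 CPM in Tnc/Cdh6 cells against 310.4 and 276 CPM in the rest, and a log2 difference of -1.29 with the thinned gate. The share of cells with at least 2 UMIs of the list after thinning to 5000 UMIs was 92.5% (99 of 107) and 91.9% (57 of 62) of Tnc/Cdh6 cells, against 79.0% and 81.3% of the rest, and without thinning 97.2% and 96.9% against 94.6% and 90.7%. Of 11 cell cycle inhibitors Cdkn1a and Cdkn1c fell, Cdkn1c, p57, at 508 and 520.2 CPM against 811 and 892 CPM and Cdkn1a with the opposite sign (0.78) with the thinned gate.

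Genes of other cell types were mostly lower in Tnc/Cdh6 cells, and their part in the falls was not tested. Of 14 mural and contractile genes 8 fell and none rose, with summed levels of 128 and 146 CPM in Tnc/Cdh6 cells against 235 and 222 CPM in the rest; Tagln and Kcnj8 had no UMI in Tnc/Cdh6 cells. Of the 9 tested neuron genes 5 fell (sums 47.3 and 49.0 CPM against 161 and 146 CPM), of 6 glial genes 3 (17.5 and 23.1 CPM against 62.2 and 64.7 CPM) and of 5 epithelial genes 3 (17.1 and 25.0 CPM against 57.9 and 56.3 CPM). DESeq2 called 4 mural, 3 neuron, 1 glial and 1 epithelial gene lower. Of 5 erythroid genes 4 fell, with sums of 47.7 and 36.5 CPM against 1770 and 1541 CPM. With cells of more than 2 adult globin UMIs left out, added after the data were seen, 441 genes were called higher and 676 lower, which leaves both counts close to those of all cells. Of 10 macrophage genes 8 were at 0 in Tnc/Cdh6 cells, with sums of 3.5 and 4.81 CPM against 3.98 and 4.0 CPM. The remaining lists held few calls: of 3 skeletal muscle genes Myl1 rose and of 7 bone genes Ibsp fell, neither by DESeq2 (adjusted p = 0.073 and 0.33), of 9 mesothelial and meningeal genes Lum, Foxd1 and Slc22a6 fell, and of 16 stress genes Junb rose and Jun and Nr4a1 fell.

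Over the whole range of Tnc UMIs per cell Ccn3 stood higher and Lum lower in cells with more Tnc, but not at each step. The limit of the gate was drawn with these genes in view, so the values are a description. In replicate 1, Ccn3 stood at 4.56, 7.68, 48.4, 38.4, 131 and 174 CPM in mesenchymal cells with 0, 1, 2, 3 to 4, 5 to 7 and at least 8 Tnc UMIs, and in replicate 2 at 4.79, 11.8, 41.2, 64.7 and 117 CPM up to 5 to 7 UMIs; only 3 cells of replicate 2 had at least 8. Lum stood in the same order at 133, 76.8, 49.1, 58.0, 13.0 and 10.6 CPM in replicate 1 and at 146, 67.9, 52.4, 24.8 and 13.7 CPM in replicate 2. Cells with Tnc UMIs were also deeper than those with 0, but depth did not climb throughout. In replicate 1 the median was 14625.5 UMIs at 0, 20174.5 at 3 to 4, 19965 at 5 to 7 and 18304 at 8 or more. In replicate 2 it was 11050 at 0, 15399 at 3 to 4 and 16217 at 5 to 7. Just inside the gate, with 3 or 4 Tnc UMIs and a Cdh6 UMI, Ccn3 was at 45.1 and 82.4 CPM and Lum at 39.6 and 13.7 CPM; just outside, with 2 Tnc UMIs and a Cdh6 UMI, Ccn3 was at 55.9 and 51.1 CPM and Lum at 51.7 and 31.3 CPM. In replicate 1 Ccn3 was thus lower just inside the limit than just outside it, and in replicate 2 higher.

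**Figure D3:**
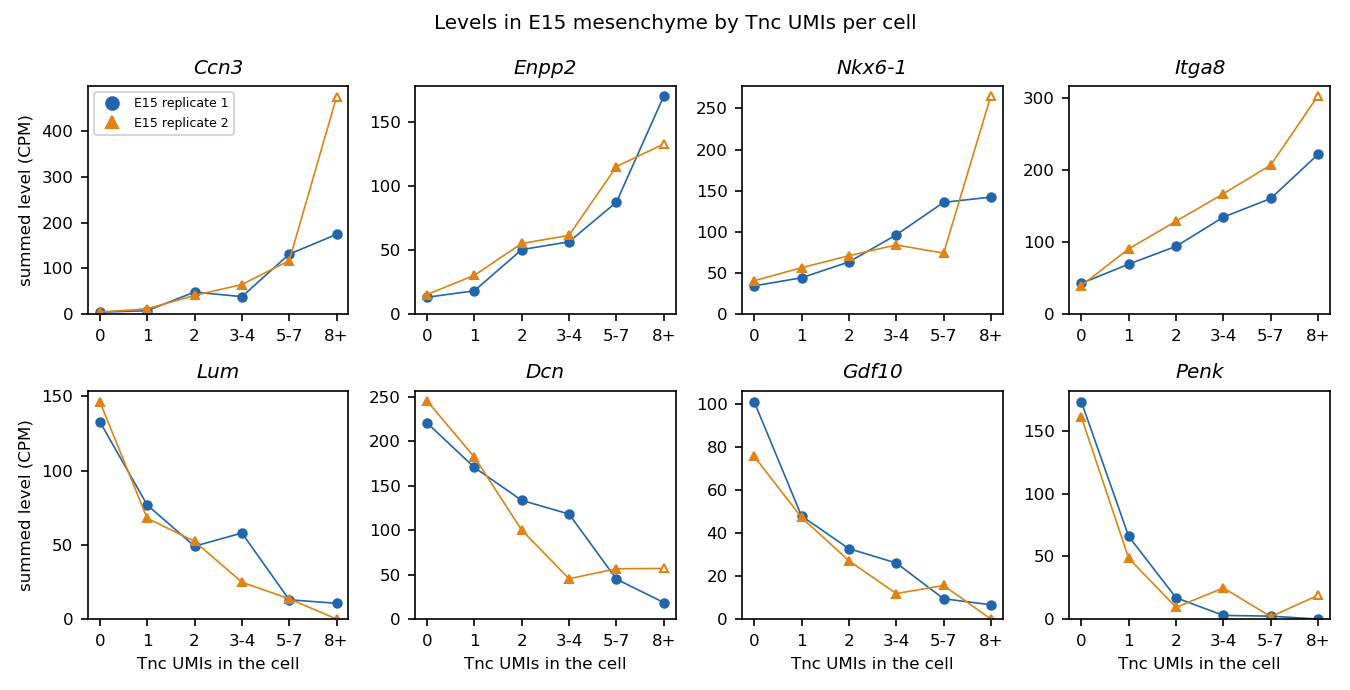
Summed level in CPM of 8 genes in E15 mesenchymal cells grouped by their Tnc UMIs, from 0 to at least 8, for replicate 1 (blue circles) and replicate 2 (orange triangles); the open symbol marks a group of 3 cells. Ccn3, Enpp2, Nkx6-1 and Itga8 stand higher and Lum, Dcn, Gdf10 and Penk lower toward cells with more Tnc.

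To see which differences went with Tnc or with Cdh6, Tnc/Cdh6 cells were set against cells passing only the Tnc limit (34 and 25 cells), only the Cdh6 limit (338 and 358) or neither (1150 and 1620). These comparisons share the Tnc/Cdh6 cells. Against cells with Tnc only, 40 genes (0.346% of 11569) were higher and 26 (0.225%) lower, against cells with Cdh6 only 125 (1.08%) and 197 (1.7%), and against cells with neither 521 (4.5%) and 653 (5.64%). Without the library block the counts against cells with Tnc only, the smallest group, were 20 and 13.

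Bambi was called higher in cells with both than in cells with either alone. It had 174 and 129 CPM with both, against 43.1 and 53.1 CPM with Tnc only, 55.9 and 56.4 CPM with Cdh6 only and 24.0 and 27.5 CPM with neither (log2 difference 1.73 ± 0.22 from Tnc only and 1.49 ± 0.11 from Cdh6 only). The group with Cdh6 only includes cells with 1 or 2 Tnc UMIs. Bambi was at 110 and 92.3 CPM in those with 2 (45 and 37 cells) and at 55.5 and 102 CPM in those with 1 (50 and 59 cells). Just inside the gate, with 3 or 4 Tnc UMIs and a Cdh6 UMI, Bambi was at 120 and 129 CPM. Within the gate, Bambi was at 105 and 53.8 CPM in cells with 1 Cdh6 UMI (24 and 20 cells) and at 196 and 177 CPM in those with more. In replicate 2 gated cells with 1 Cdh6 UMI thus stood at the level of Tnc only. Sp5 followed the same order, at 131 and 124 CPM with both against 60.4 and 66.4 CPM with Tnc only and 73.5 and 70.4 CPM with Cdh6 only, as did Id1 (706 and 681 CPM against 378 and 472 CPM and 404 and 477 CPM) and Smad7. Akap12, Emcn, Robo2 and Cacna2d1 were called higher against both single groups too. Ccn3 stood between, at 48.9 and 75.3 CPM with Tnc only (0.89 ± 0.21, edgeR adjusted p = 0.038) and at 17.3 and 14 CPM with Cdh6 only (2.81 ± 0.15). Within the gate, Ccn3 was at 118 and 22.0 CPM in cells with 1 Cdh6 UMI and at 113 and 162 CPM in those with more. In replicate 2, gated cells with 1 Cdh6 UMI thus stood below Tnc only, while replicate 1 showed no such split.

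Most of the large risers and fallers were not called against cells with Tnc only, a small group in which a difference can be missed. Of the 15 large risers 7 were called higher against that group, and of the 15 large fallers 3 were called lower. The sign was that of the main test for 14 of the risers and 11 of the fallers. Against cells with Cdh6 only, 15 of 15 and 14 of 15 were called. Ckb had 198 and 240 CPM with both, against 239 and 217 CPM with Tnc only and 104 and 116 CPM with Cdh6 only. Its difference from Tnc only was -0.12 ± 0.12, that of Itga8 0.37 ± 0.13 and that of Cxcl12 -0.02 ± 0.17, none of them called. Gdf10 had 18.8 and 14.4 CPM with both against 8.62 and 8.86 CPM with Tnc only (0.95 ± 0.40, not called), and 74.1 and 59.7 CPM with Cdh6 only. Among the large fallers Lum, Gpc3 and Meox2 were also lower than with Tnc only, Gpc3 at 86.3 and 68.3 CPM against 164 and 131 CPM (-0.95 ± 0.13). Plpp3, which was not called against the rest as a whole, had 335 and 341 CPM with both against 170 and 157 CPM with Tnc only (1.02 ± 0.10).

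**Figure D4:**
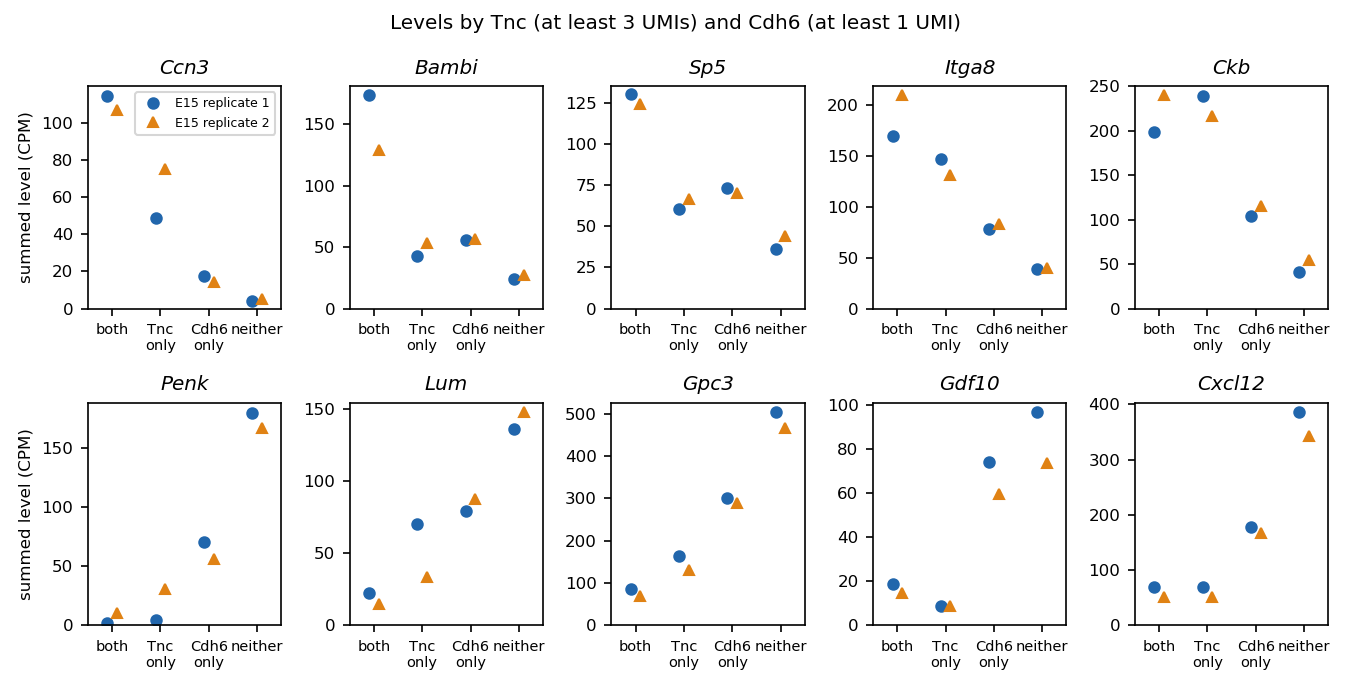
Summed level in CPM of 10 genes in E15 mesenchymal cells with both Tnc (at least 3 UMIs) and Cdh6 (at least 1 UMI), Tnc only, Cdh6 only and neither, for replicate 1 (blue circles) and replicate 2 (orange triangles). Bambi, at 174 and 129 CPM with both, stands above the 3 other groups, while Ckb is at a like level with both and with Tnc only.

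At P7 the same gate held 72 of 4233 mesenchymal cells (1.70%, exact 95% interval 1.33 to 2.14%). With 1 library there is no test, and ratios are on the log2 scale. Ccn3 had 623 CPM in these cells against 110.4 CPM in the rest (2.50), Ifitm1 781 against 174 CPM (2.17), Sp5 65.7 against 9.30 CPM (2.83) and Dach1 97.8 against 26.2 CPM (1.90). Of the 15 large risers of E15, 11 were past a 1.5-fold rise at P7, and of the 15 large fallers 13 were past a 1.5-fold fall, where 14.3% and 19.2% of all tested genes were past these limits. Over all genes called at E15, 169 of 423 risers and 396 of 675 fallers were past them. Penk and Meox2 had no UMI in the gated P7 cells, against 8.74 and 2.66 CPM in the rest.

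The order of some markers differed with age. Itga8 had 66.4 CPM in the gated P7 cells against 98.5 CPM in the rest, and Kit 18.7 against 24.4 CPM. Nkx6-1 stood at 96.3 against 90.8 CPM and so hardly set the P7 cells apart, while Enpp2 stood at 710 against 228 CPM. The Wnt genes Notum (765 against 204 CPM) and Nkd1 (1374 against 266 CPM) had larger ratios at P7, 1.91 and 2.37, than Bmp4 or Bmp2, 0.27 and 0.13. These are single genes of their lists. Bambi, of the BMP list, had 665 against 379 CPM (0.81) at P7, and Dkk2, a faller of the Wnt list at E15, 5.23 against 6.29 CPM (-0.17). Fibronectin, which did not pass at E15, had 1210 CPM against 293 CPM, and Emilin2, one of a list of genes of P7 fibrocytes, 2637 against 1048 CPM. On that list, at E15, Emilin2 was among the genes that rose, and Coch, Car3 and Slc12a2 fell, of 15 tested, Coch with the opposite sign (0.15) where at least 10 collagen UMIs were required.

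**Figure D5:**
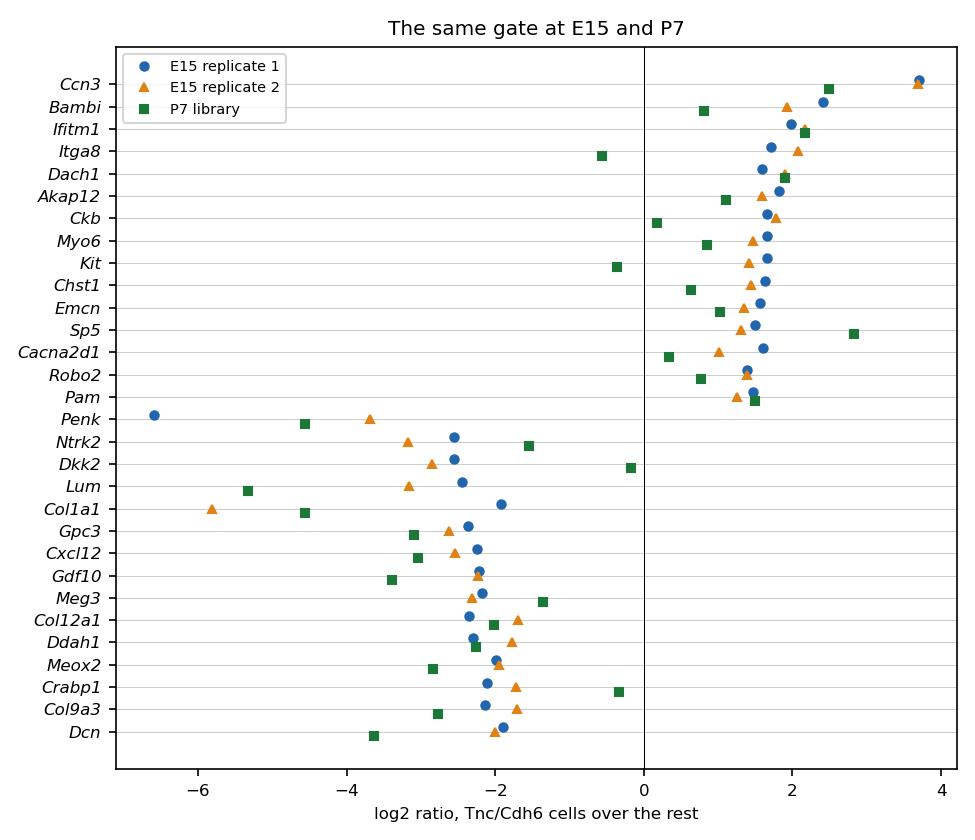
Log2 ratio of Tnc/Cdh6 cells over the rest of the mesenchyme for the 15 genes with the largest rise and the 15 with the largest fall at E15, in E15 replicate 1 (blue circles), E15 replicate 2 (orange triangles) and the P7 library (green squares). At P7 Itga8 and Kit lie left of 0, at -0.56 and -0.36, while the 15 fallers lie left of 0 at both ages.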

How the data were processed

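Per the labels' protocols, libraries were made with the Chromium 3' v3 kit. The authors deposited raw UMI counts per gene and barcode, made with Cell Ranger 6.1.2 on GRCm38 per the submitters' processing notes; per the file headers the version was 6.1.2 for E15 and 3.1.0 for P7. The E15 libraries held 3234 and 3897 barcodes and 46530036 and 44304364 UMIs, the P7 library 8141 barcodes and 93829443 UMIs. Genes were limited to the 27734 Ensembl IDs listed in all 3 libraries.

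The members, the lists and the tests were chosen with earlier results of these data known. Counts were summed per library and tested in R 4.3.3 with edgeR 4.0.16 (TMM scaling, filterByExpr, library as a block), with DESeq2 1.42.0 as an alternative; SE is the log2 difference divided by the square root of F. Genes that the gate reads, and Enpp2 and Nkx6-1, got no test. Members and rest are cells of the same libraries, which pairs them; their deviations correlated at 0.11. The tests were tried on simulated data. Named genes are the 15 largest rises and 15 largest falls among called genes with at least 50 CPM in both libraries of the higher group, leaving out mitochondrial, ribosomal, hemoglobin, immunoglobulin, sex-linked and unnamed genes, and up to 8 called genes of each of 32 lists. Axin2, Nkd1, Apcdd1, Bmp4, Smad6, Smad7, Id1, Slit2, Plxnd1, Epha5, Nr2f1, Meox1, Col25a1, Ncan, Ptn, Tgfbi and genes given as not passing, and some list members named without values, were picked after their values were seen. Doublets were kept; the automatic threshold of Scrublet (scanpy 1.11.5) marked 7 and 4 E15 barcodes, so the highest scores, 64 and 100, were left out as an alternative. Log2 ratios at P7 add 0.5 UMI to each sum. Figures were drawn with matplotlib 3.10.9. Some members of the lists are not reported here.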

Additional observations from a re-analysis of the deposited data

Results flagged for a closer look

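Itga8 was higher in Tnc/Cdh6 cells than in the rest in both E15 libraries and lower in the P7 library, with a log2 ratio of -0.56 there. Kit likewise was higher in both E15 libraries and lower at P7, with a log2 ratio of -0.36. The difference between the ages was not tested, since P7 has 1 library.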

How the results depend on the processing

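The main counts, 423 genes higher and 675 lower, changed by over 1.5 times under some settings. Genes called higher numbered 153 with DESeq2's test, 176 with a fold limit of 2, 258 with Tnc of at least 5 UMIs, 191 with at least 10 collagen UMIs, 104 with the gate applied after thinning to 5000 UMIs and 254 among cells above the median UMI count. Genes called lower numbered 214 with DESeq2's test, 213 with at least 10 collagen UMIs, 253 with the thinned gate, 398 among cells above the median UMI count and 411 against a rest poor in collagen. Without the replicate block the counts were 350 and 530. The other alternatives stayed within 1.5 times. Leaving out a library leaves no residual degrees of freedom, so no test could be made; in replicate 1 alone 386 of the 423 and 636 of the 675 were past a fold of 1.5, and in replicate 2 alone 347 and 586.

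Against cells with Tnc only, 20 genes were higher and 13 lower without the replicate block. Among cells above the median UMI count, 112 genes were lower than in cells with Cdh6 only, and 276 were higher and 381 lower than in cells with neither.

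The share of E15 mesenchyme in the gate, 6.63% and 3.1% in replicates 1 and 2, was 9.39% and 4.89% with Tnc of at least 2 UMIs, 4.05% and 1.26% with at least 5, 5.15% and 2.13% with Cdh6 of at least 2, 2.83% and 1.38% with at least 10 collagen UMIs, 1.29% and 0.583% after thinning, and 9.33% and 4.45% among cells above the median UMI count. The share with cell cycle UMIs was 68.2% and 70.3% of Tnc/Cdh6 cells against 51.5% and 54.2% of the rest after thinning to 2000 UMIs, and 73.8% and 72.6% against 53.5% and 56.96% with at least 4 UMIs of the list.

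Of the 30 genes with the largest change, Col1a1 turned to 0.38 against a rest poor in collagen and was not called by DESeq2, Cacna2d1 lost its call with at least 10 collagen UMIs and Col12a1 with the thinned gate. With the thinned gate, which leaves 20 and 11 cells and shifts the median of all genes to -0.11, the sign turned for Chrdl1 (0.67), Chrd (0.26), Fgf18 (0.23), Cenpe (-0.27), Kif11 (-1.02), Cenpf (-0.17), Nusap1 (-0.98), Cdkn1a (0.78), Plvap (-8.21), Mki67 (-0.97), Top2a (-1.29), Plxnd1 (-0.55) and Meox1 (-0.67). It also turned for Cenpf against a rest poor in collagen (-0.021), for Coch (0.15), Otor (-1.36) and Apcdd1 (-0.13) with at least 10 collagen UMIs, and for Hbb-bt (0.20) without globin cells. With no filter on low counts the median of all genes was -0.12. The cause of these changes was not tested. Depth limits low genes, since 1 UMI in the summed Tnc/Cdh6 cells is 0.44 CPM in replicate 1 and 0.96 CPM in replicate 2.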

Other observations

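Npy, the precursor of neuropeptide Y, had 56.5 and 73.1 CPM in Tnc/Cdh6 cells against 25.4 and 26.0 CPM in the rest (log2 difference 1.29 ± 0.14), and was picked after its values were seen. Otor, otoraplin, a secreted protein of the cochlear mesenchyme, had 1102 and 804 CPM in Tnc/Cdh6 cells against 609 and 363 CPM in cells with Tnc only, and 807 and 1123 CPM in cells with Cdh6 only; at P7 it stood at 10214 CPM in the gated cells against 9231 CPM in the rest.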
